A study of Homo sapiens with 6 samples.

Results

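The 10 RNAs described here encode the secretory granule proteins and diagnostic markers by which neuroendocrine tumors are recognized. They are *CHGA*, *CHGB*, *SCG2*, *SCG3*, *SCG5*, *SYP*, *ENO2*, *NCAM1*, *KRT20* and *UCHL1*. They were taken by gene name from the count table, in which each name matched 1 of the 60655 listed genes. The libraries came from RIP-seq, in which RNA that is precipitated together with a protein is sequenced. In 3 libraries the antibody was against IGF2BP3 (IGF2BP3 IP), and in the other 3 it was the IgG control (IgG IP). All 6 came from WaGa, an established Merkel cell carcinoma (MCC) line positive for Merkel cell polyomavirus, which the labels give as wild type and untreated. The 2 groups thus shared the line, and the antibody is the only difference between them that the labels give. Whether same-numbered libraries came from the same lysate is not stated. A single line stands for the tumor type. As these are bulk libraries, RNA from fewer cells and less RNA per cell cannot be told apart, and no library of RNA before precipitation was analysed here.

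Neuroendocrine cells store hormones and amines in dense core granules. Granins such as chromogranin A are acidic proteins that help to form the granules and pack their contents, while synaptophysin lies in the membrane of smaller, clear vesicles. Pathologists recognize MCC by a combination of these proteins with keratin 20, which stains as a dot beside the nucleus. IGF2BP3 is an oncofetal RNA-binding protein. The IGF2BP family is known to bind CA-rich stretches and the methylated adenosine of the GGAC sequence context in mRNAs.

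None of the 9 marker RNAs that could be tested was called enriched in the IGF2BP3 IP in the main test (edgeR, libraries unpaired). Of the 10, 9 were readily measured in both IPs. *NCAM1*, which encodes the adhesion molecule CD56, came nearest. It was 1.58-fold higher in the IGF2BP3 IP, with all 3 IGF2BP3 IP libraries above all 3 IgG IP libraries, and missed the threshold on the adjusted p-value at 0.055. DESeq2, the program named in the authors' methods, put it past both thresholds (adjusted p = 0.0017). So did edgeR when libraries were paired by replicate number. The 4 tested granin RNAs and *KRT20* had fitted ratios of 0.893 to 1.05.

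To show the recognition context named above, the stretch of 60 coding bases with the most GGAC copies was read from GRCh38 for the 3 members that the comparisons below turn on or that were most abundant. GGAC is in capitals. The *ENO2* stretch is on chromosome 12, plus strand, chr12:6919697-6919756, that of *CHGA* on chromosome 14, plus strand, chr14:92931471-92931530, and that of *NCAM1* on chromosome 11, plus strand, chr11:113206102-113206161.
ENO2: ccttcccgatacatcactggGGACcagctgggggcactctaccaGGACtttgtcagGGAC
CHGA: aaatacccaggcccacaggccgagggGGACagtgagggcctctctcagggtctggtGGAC
NCAM1: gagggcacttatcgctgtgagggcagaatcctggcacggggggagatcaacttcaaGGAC
Each stretch lies in a single coding exon. Where stretches tied, the first along the gene was taken. That of *NCAM1* holds only 1 GGAC, while its whole canonical transcript has 20 copies. Such copies are common. Of 11866 tested coding genes, 96.6% had at least 1 GGAC in some coding stretch of this length, 62.2% had at least 2, as in *CHGA*, and 16.4% had at least 3, as in *ENO2*. RIP-seq gives an amount per RNA and no position, so no letter here is a measured binding site.

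Depth and the state of the libraries bear on all values. Counts on genes ran from 9758759 to 14886414 per library. Replicate 1 of both groups stood apart from replicates 2 and 3, with a chi-square over its degrees of freedom of 16.3 to 19.7 for pairs of 1 group that include replicate 1, against 2.13 and 3.06 for the other pairs. In the TPM values, *RN7SK*, an abundant small nuclear RNA, took 10.5% and 10.1% of the total in the replicate 1 libraries and 3.74% to 5.95% in the others. A larger share for *RN7SK* lowers all other TPM values. With IgG, *CHGA* stood at 511 TPM in replicate 1 and at 752 and 728 TPM in replicates 2 and 3. How much of the low TPM in replicate 1 comes from *RN7SK* was not tested. The defining markers of MCC were present. All 12 on the list were above 1 TPM, with a summed level of 2394 to 3539 TPM in the IgG IP and 2852 to 3672 TPM in the IGF2BP3 IP. The list includes the members *CHGA*, *SYP*, *ENO2*, *NCAM1* and *KRT20*, so its sum is not separate from the levels given below. Its most abundant genes were *CHGA*, *POU4F3* and *KRT20*. Of 10 fibroblast markers 1 was above 1 TPM (*DCN*, at 41.4 TPM), of 10 keratinocyte markers 2 (*KRT10* and *KRT15*), of 7 melanocyte markers 0, and of 10 lymphocyte and myeloid markers 1 (*CD79B*). From these lists *COL3A1*, *PDGFRA*, *KRT14*, *IVL*, *MLANA*, *TYR*, *PTPRC* and *CD3E* had 0 counts in every library. Other genes of the same lists had some counts, among them *THY1*, *COL1A1*, *KRT5*, *MITF*, *PMEL*, *CD79A* and *CD14*. A count of 0 need not mean absence, as *RN7SK* also had 0 counts in every library.

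Levels were compared between members as TPM, the value that is scaled to transcript length. *CHGA* was highest at 685 ± 102 TPM (mean ± SD over all 6 libraries), followed by *KRT20* at 555 ± 86.0 TPM. *SCG5* at 299 ± 29.1 TPM and *UCHL1* at 281 ± 39.1 TPM came next. After these came *SCG3* at 82.6 ± 14.4 TPM, *SYP* at 49.4 ± 15.6 TPM, *ENO2* at 45.7 ± 10.8 TPM and *NCAM1* at 23.7 ± 9.67 TPM. *CHGB* reached 4.79 ± 1.31 TPM, and *SCG2* was listed at 0 in 3 libraries and at no more than 0.09 TPM in the others. These means pool both antibodies, so each SD holds any difference between the IPs as well as the spread between replicates. In replicates 1 to 3, *NCAM1* had 10.6, 21.3 and 19.2 TPM with IgG and 21.2, 36.9 and 33.1 TPM with the IGF2BP3 antibody. *SCG5* was above *UCHL1* in 4 of 6 libraries and *SYP* above *ENO2* in 3 of 6, so the order within these pairs was not set beyond the spread. *CHGA* was above *KRT20* in 6 of 6 libraries, although their ranges over libraries overlapped. The remaining neighbors kept their order in all 6 libraries. Over all libraries the ranges of *SCG3* and *SYP* overlapped as well, as did those of *ENO2* and *NCAM1*.

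**Figure D1:**
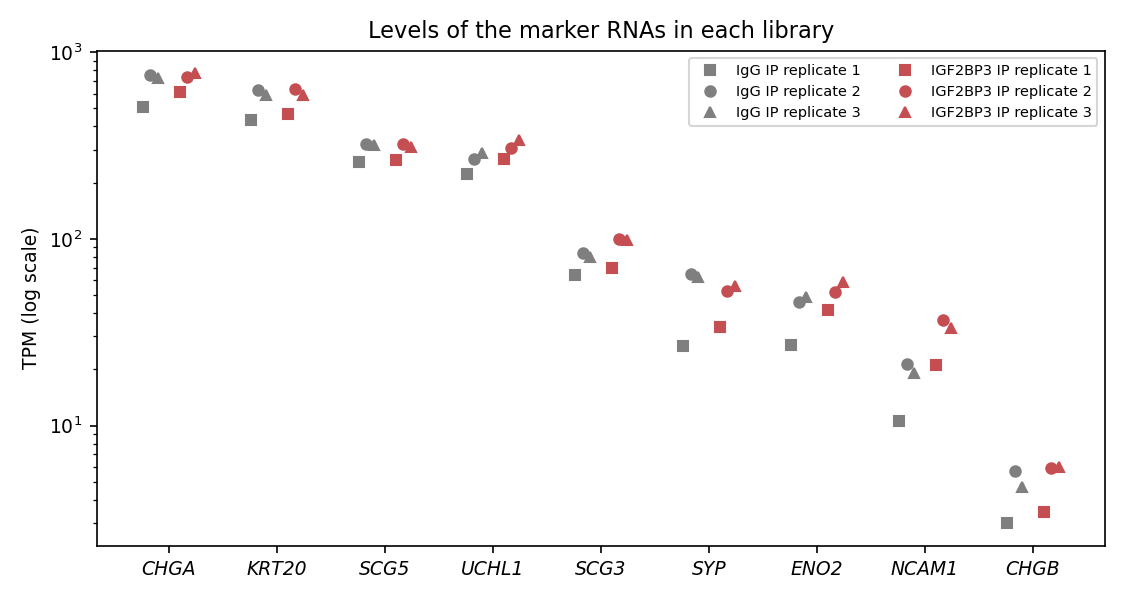
TPM (log axis) of 9 marker RNAs in each library, ordered by the mean over all 6; gray symbols are IgG IP, red symbols IGF2BP3 IP, and squares, circles and triangles are replicates 1, 2 and 3. Levels fall from 685 TPM for *CHGA* to 4.79 TPM for *CHGB*, and the squares lie low, with *SCG2* left out because it is at 0 in 3 libraries.

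Within a library the members ranked from the top of the list down to the noise. *CHGA* was between rank 175 and 233 of all 60655 listed genes by TPM and *KRT20* between 213 and 282, whereas *CHGB* was between 9099 and 10080. The 10 RNAs together held 0.260% to 0.275% of the counts of a library, and *CHGA* and *KRT20* made up 66.0% to 68.7% of that. Their shares were 0.260% to 0.273% in the control and 0.267% to 0.275% with the IGF2BP3 antibody and overlapped.

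Setting the IGF2BP3 IP against the IgG IP asked which of these RNAs held a larger or smaller share than in the control. The test was made on the counts, with normalized CPM (counts scaled to the TMM library size) as the level. The log2 fold change was taken as IGF2BP3 IP over IgG IP. TMM sets each library to the bulk of its own RNAs, so a gain over the control that most RNAs share would not show. Calls needed a 1.5-fold change or more together with an adjusted p-value (Benjamini-Hochberg) below 0.05, from the quasi-likelihood test of edgeR over 14507 genes. Of the members 9 passed the expression filter. Of these, 0 were called higher, where 1.16% of all tested genes were, and 0 were called lower, where 0% were. At an unadjusted p-value under 0.05, 1 member was higher (*NCAM1*; 9.72% of all tested genes) and 0 were lower (3.10%). The median log2 fold change of the 9 was 0.02, against -0.01 over all tested genes. In 2 of the 9 the lowest IGF2BP3 IP library was above the highest IgG IP library (12.0% of all tested genes), and in another 2 the highest was below the lowest (8.69%). For a single RNA the exact two-sided permutation test cannot go below p = 0.1 with 3 libraries against 3, and these 4 RNAs reached that value. With the replicate block and no fold change minimum, 2 of the 9 were higher at an adjusted p-value under 0.05 (*NCAM1* and *ENO2*; 10.9% of all tested genes) and 1 was lower (*SCG5*; 5.23%).

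**Figure D2:**
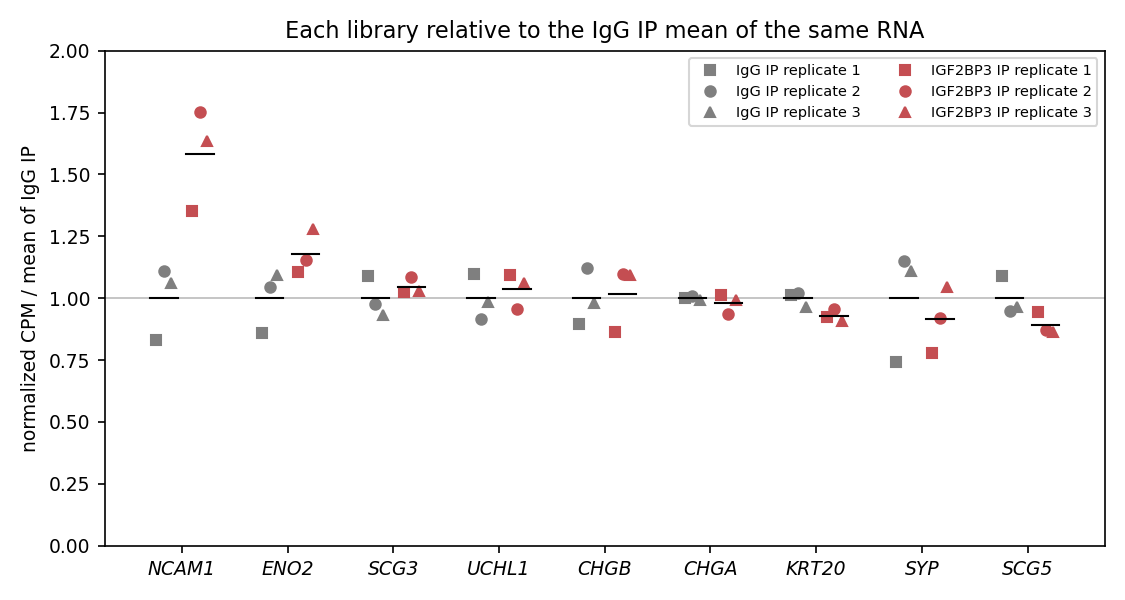
Normalized CPM of each library divided by the IgG IP mean of the same RNA, for the 9 tested members ordered by fitted fold change; symbols as replicates 1 (square), 2 (circle) and 3 (triangle), gray for IgG IP and red for IGF2BP3 IP, with black bars at the group means. The IGF2BP3 IP mean of *NCAM1* stands at 1.58 and all other members lie near 1.

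*CHGA* (ENSG00000100604.13; chr14:92923150-92935285, plus strand, 8 exons in its canonical transcript) encodes chromogranin A, the main granin of neuroendocrine granules. In replicates 1 to 3 its normalized CPM were 1057, 1063 and 1046 with IgG and 1068, 986 and 1045 with the IGF2BP3 antibody. The groups overlapped. With means of 1055 ± 8.63 and 1033 ± 42.5 (SD, n = 3 each), the log2 fold change was -0.03 with a standard error of 0.07 (adjusted p = 0.911 from edgeR). Its 95% confidence interval of -0.20 to 0.14 excludes a 1.5-fold difference in this normalized level in either direction. *CHGA* is rich in G and C, at 62.2% of its canonical transcript (percentile 91.6 of the tested genes). With a correction for GC content in the paired fit its log2 fold change was -0.25 (adjusted p = 0.0004 from edgeR), which is below the fold change minimum.

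*CHGB* (ENSG00000089199.10; chr20:5911510-5925353, plus strand, 5 exons) encodes chromogranin B, a granin that is stored together with chromogranin A. For *CHGB* the control gave 8.46, 10.6 and 9.28 normalized CPM and the IGF2BP3 antibody 8.14, 10.3 and 10.3, again overlapping. The log2 fold change of *CHGB* was 0.02 (adjusted p = 0.978 from edgeR). It rests on 78 to 158 counts per library, and its interval was wider than that of *CHGA*, from -0.35 to 0.39. *SCG2* (ENSG00000171951.5; chr2:223596940-223602361, minus strand, 2 exons) encodes secretogranin II, the precursor of secretoneurin. It had 0, 1 and 3 counts with IgG and 2, 1 and 0 with the IGF2BP3 antibody. With 7 counts in all it did not pass the filter, and both groups are at the limit that a count of 0 allows (3 counts, or 0.202 to 0.307 CPM per library), so no fold change is given. These limits cover counting error only.

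*SCG3* (ENSG00000104112.9; chr15:51681492-51721026, plus strand, 12 exons) encodes secretogranin III, which ties chromogranin A to the cholesterol-rich granule membrane. Normalized CPM of *SCG3* were 220, 198 and 188 for IgG and 207, 219 and 208 for IGF2BP3. Again the groups overlapped, and the log2 fold change of *SCG3* was 0.07 (95% confidence interval -0.12 to 0.26, adjusted p = 0.797 from edgeR). *SCG5* (ENSG00000166922.8; chr15:32641676-32697098, plus strand, 6 exons) encodes 7B2, the chaperone of prohormone convertase 2. The IgG IP libraries held 299, 260 and 264 normalized CPM of *SCG5*, and the IGF2BP3 IP libraries held 258, 238 and 237. Every IGF2BP3 IP library lay below every IgG IP library, with means of 245 ± 12.0 and 274 ± 21.2 (SD, n = 3 each). The log2 fold change was -0.16 (95% confidence interval -0.36 to 0.03, adjusted p = 0.474 from edgeR). With the replicate number as a block the adjusted p was 0.044 at a log2 fold change of -0.16, so the difference was past the test threshold there but well within the fold change minimum. With the block in DESeq2 the adjusted p was 0.063. The more recent annotation (GENCODE version 44) has a readthrough gene over *SCG5* on the same strand, which was not analysed here.

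*SYP* (ENSG00000102003.11; chrX:49187815-49200218, minus strand, 7 exons) encodes synaptophysin, the usual stain for clear vesicles. For *SYP* the control gave 48.0, 74.5 and 71.8 normalized CPM and the IGF2BP3 antibody 50.5, 59.5 and 67.7. Both replicate 1 libraries were the lowest of their group, and on the log2 scale *SYP* was 0.46 lower in replicate 1 than in the others (mean of both groups), the largest such gap among the members. The groups overlapped, with a log2 fold change of -0.13 (95% confidence interval -0.52 to 0.26, adjusted p = 0.803 from edgeR). The interval of *SYP* was the widest among the 9 members. Differences within the same-numbered pairs were 0.07, -0.32 and -0.08 on the log2 scale and did not share a direction.

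*ENO2* (ENSG00000111674.9; chr12:6913745-6923698, plus strand, 12 exons) encodes neuron-specific enolase, a glycolytic enzyme. Normalized CPM of *ENO2* were 55.3, 67.2 and 70.4 for IgG and 71.0, 74.3 and 82.3 for IGF2BP3. All of the latter lay above all of the former, with the lowest IGF2BP3 IP library just above the highest IgG IP library. The means were 75.9 ± 5.82 and 64.3 ± 7.97 (SD, n = 3 each), a 1.18-fold difference. The log2 fold change of 0.24 had a 95% confidence interval of -0.02 to 0.49 (adjusted p = 0.427 from edgeR). With the block it was 0.24 with an adjusted p of 0.0196 from edgeR, still below the fold change minimum. The adjusted p was 0.139 with the block in DESeq2, and with the GC correction and block the log2 fold change was 0.13 (adjusted p = 0.221 from edgeR). *LRRC23* overlaps *ENO2* on the same strand and held 7 to 19 counts per library, against 510 to 1013 on *ENO2*.

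*UCHL1* (ENSG00000154277.13; chr4:41256413-41268455, plus strand, 9 exons) encodes PGP9.5, a ubiquitin hydrolase that is abundant in neurons. The IgG IP libraries held 194, 163 and 174 normalized CPM of *UCHL1*, and the IGF2BP3 IP libraries held 194, 169 and 188. The values overlapped, and the log2 fold change of *UCHL1* was 0.05 (95% confidence interval -0.16 to 0.27, adjusted p = 0.863 from edgeR). *KRT20* (ENSG00000171431.4; chr17:40875889-40885242, minus strand, 8 exons) encodes the intermediate filament keratin 20. For *KRT20* the control gave 806, 811 and 767 normalized CPM and the IGF2BP3 antibody 733, 758 and 723. Every IGF2BP3 IP library was below every IgG IP library, but by little. The means were 738 ± 18.4 and 795 ± 24.0 (SD, n = 3 each) and the log2 fold change was -0.11 (95% confidence interval -0.27 to 0.06, adjusted p = 0.594 from edgeR).

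*NCAM1* (ENSG00000149294.17; chr11:112961275-113278436, plus strand, 20 exons) encodes CD56, a homophilic cell adhesion molecule used to stain neuroendocrine tumors and natural killer cells. Its raw counts were 549, 1186 and 944 with IgG and 1156, 1664 and 1444 with the IGF2BP3 antibody. Normalized CPM of *NCAM1* were 59.5, 79.5 and 76.1 for IgG and 97.1, 126 and 117 for IGF2BP3. All IGF2BP3 IP libraries lay above all IgG IP libraries, and replicate 1 was the lowest in both groups. The means were 113 ± 14.7 and 71.7 ± 10.7 (SD, n = 3 each). Within the same-numbered pairs the log2 differences were 0.71, 0.66 and 0.62 and thus much alike, although the level differed between replicates.

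For *NCAM1* the fit gave a log2 fold change of 0.66, its standard error 0.13 and its 95% confidence interval 0.35 to 0.96. Its unadjusted p-value of 0.000838 was rank 219 among the tested genes, and the adjusted p was 0.055 from edgeR. With the replicate number as a block the log2 fold change was again 0.66 (95% confidence interval 0.53 to 0.79, adjusted p = 3.6e-08 from edgeR), and *NCAM1* was the only member of 9 past both thresholds, where 3.56% of all tested genes were called higher and 0.103% lower. DESeq2 without the block also called it (log2 fold change 0.65, adjusted p = 0.0017), as 1 of 9 members where 2.22% of all genes given an adjusted p-value were called. Without replicate 1 of both groups, which was left out after its distance from the others had been seen, the log2 fold change was 0.64 (adjusted p = 1.1e-06 from edgeR) and 3.18% of all genes were called. Without the IGF2BP3 IP replicate 1 library alone it was 0.76 (adjusted p = 0.024 from edgeR), with 1.64% of all genes called. Without the expression filter it was called as well, with 1.23% of all genes called, and with the block in DESeq2, with 2.91%. With a correction for transcript length it was 0.55 (adjusted p = 0.026 from edgeR) and fell under the fold change minimum. *NCAM1* has a long canonical transcript of 5819 bases (median of tested genes 3018), and the part of length in its difference was not tested. In all, 7 of 21 alternative settings called *NCAM1*, and over all 21, called or not, its log2 fold change ran from 0.55 to 0.86.

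**Figure D3:**
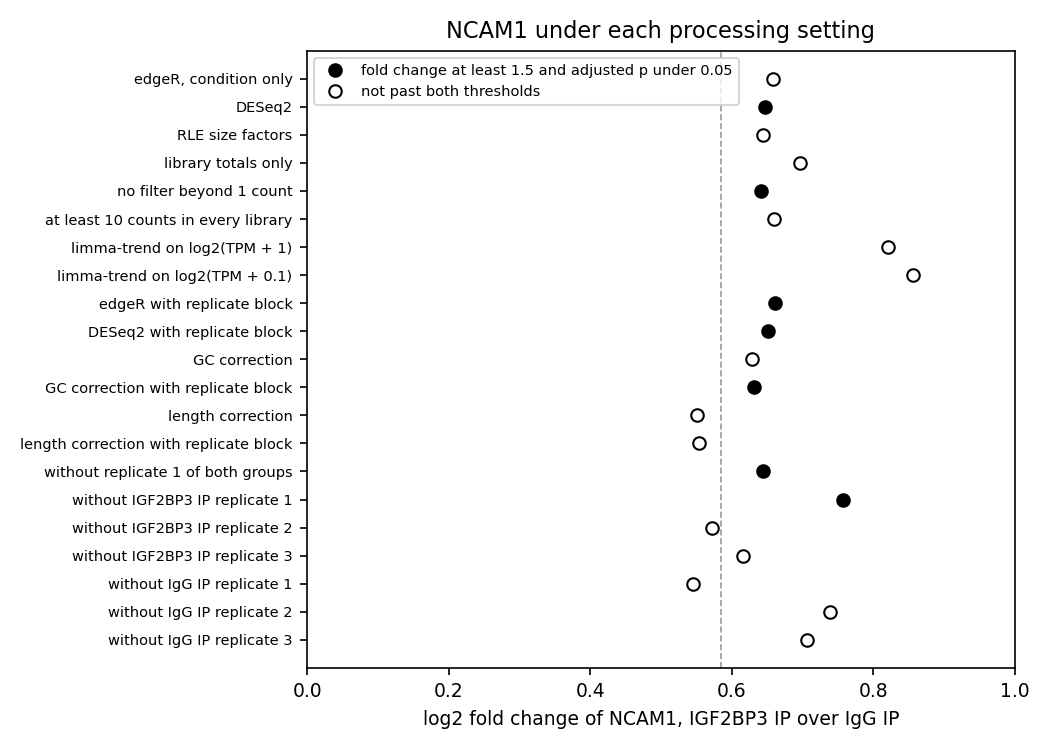
Log2 fold change of *NCAM1* (IGF2BP3 IP over IgG IP) under edgeR with condition only (top) and 20 alternative settings; filled circles are past both thresholds and open circles are not, and the dashed line marks the fold change minimum of 1.5. All values lie between 0.55 and 0.86, and the 7 filled circles include DESeq2 and the fits with a replicate block but without a length correction. Dropping the fold change minimum leaves the value as in the top line and is not drawn.

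**Figure D4:**
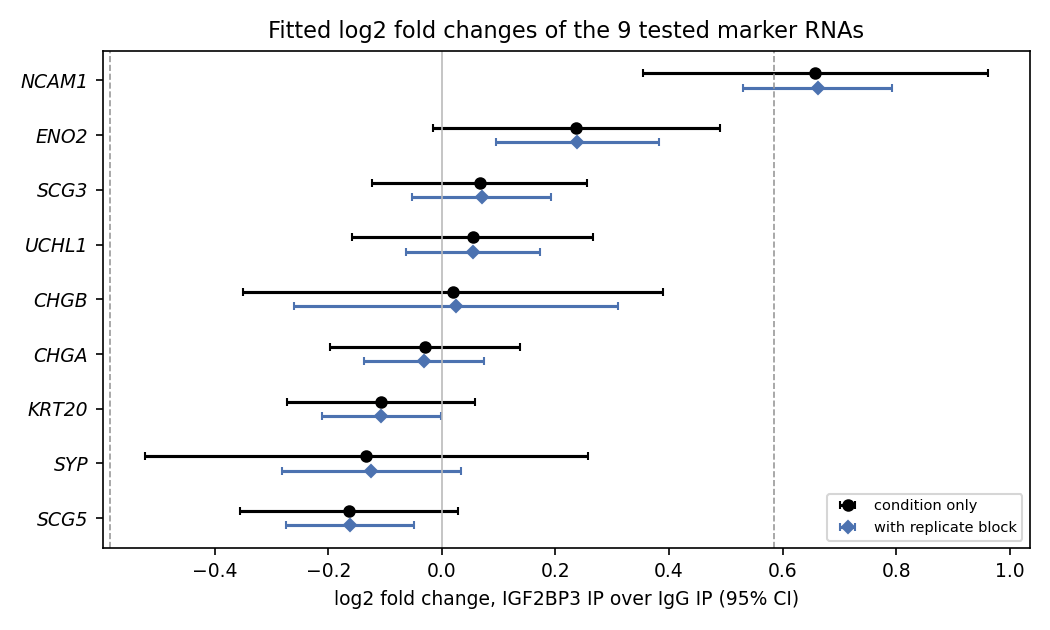
Fitted log2 fold changes (IGF2BP3 IP over IgG IP) of the 9 tested members with 95% confidence intervals, for the fit with condition only (black circles) and with the replicate number as a block (blue diamonds); dashed lines mark 1.5-fold in either direction. *NCAM1* at 0.66 is the only member beyond a dashed line, and the intervals with the block are narrower.

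Sequence features of the members differed widely and were not used to choose them. GGAC and ACACA were counted on the RNA strand of each canonical transcript, copies of ACACA that overlap each other included, and the 2 motifs can share the letters AC. GGAC was found in 98.0% and ACACA in 84.2% of 14479 tested transcripts, so their presence alone says little. *NCAM1* held 25 copies of ACACA, or 4.30 per kilobase (percentile 98.3 of the tested genes, with a median of 1.00). Of the 25 copies 4 lay in the coding part and 21 beyond it, and its longest uninterrupted run of alternating C and A was 12 bases. *CHGB*, with 2.84 per kilobase (percentile 94.4), was the next of the members, whereas *ENO2* had 1 copy. By GGAC, *CHGB* was highest at 6.50 per kilobase and *NCAM1* stood at the middle of the tested genes with 3.44 per kilobase (percentile 48.7). A match of letters is a description of the transcript and not a site. Whether the density of either motif goes with the fold change was not tested. Antisense genes over *NCAM1* held 6 to 23 counts (ENSG00000247416) and 1 to 7 counts (*NCAM1-AS1*) per library, against 549 to 1664 on *NCAM1*.

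The wider machinery of neuroendocrine secretion was read from 11 lists of 150 genes in all, of which 104 passed the filter. Of these, 1 was enriched and 0 were lower (edgeR, both thresholds), 0.962% of the 104 against 1.16% of all tested genes. With the replicate block 8 were enriched and 0 lower, which is 7.69% of the 104 against 3.56% of all tested genes. With DESeq2 the number was 7, where 2.22% of all genes were called. At an unadjusted p-value under 0.05, 20 were higher and 0 lower, against 9.72% and 3.10% of all tested genes. The median log2 fold change was 0.10 against -0.01 over all tested genes, and the groups were separate with the IGF2BP3 IP higher in 21 of the 104 and lower in 5 (12.0% and 8.69% of all tested genes).

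The single enriched RNA was *HID1*, which encodes a Golgi-associated protein needed for the formation of dense core vesicles. The IgG IP libraries held 7.80, 5.16 and 5.97 normalized CPM of *HID1*, and the IGF2BP3 IP libraries held 10.8, 13.3 and 12.8, with all of the latter higher. Its log2 fold change of 0.98 had a standard error of 0.19 (adjusted p = 0.041 from edgeR) on 72 to 176 counts per library. This call was lost on the TPM scales with log2 fold changes of 0.71 and 0.87 (adjusted p = 0.641 and 0.728 from limma), with the GC correction (0.77, adjusted p = 0.173 from edgeR), with the length correction (0.92, adjusted p = 0.051 from edgeR) and with 1 library fewer in 4 of 6 cases (log2 fold changes of 0.85 to 0.95), namely without replicate 2 or 3 of either group.

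In the list of dense core vesicle biogenesis and release, 37 of 40 genes were tested. Beside *HID1*, the genes called with the block included *VPS52*, *RAB3B* and *SYT7*, and DESeq2 called these too. *SYT7* encodes a calcium sensor of exocytosis, *RAB3B* a small GTPase of secretory vesicles and *VPS52* a subunit of the tethering complexes GARP and EARP. With the block their log2 fold changes were 0.60 for *VPS52*, 0.71 for *RAB3B* and 0.87 for *SYT7*. Without it they had adjusted p-values of 0.111, 0.059 and 0.106 in the same order (edgeR). *SYT7* was higher in each pair, at 17.3 to 31.0 normalized CPM with IgG and 33.8 to 48.0 with the IGF2BP3 antibody. The most abundant RNAs of the list, *TMED2* at 356 TPM and *SNAP25* at 222 TPM, were not called in either fit.

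Of the prohormone processing list 8 of 13 genes were tested and 0 were called without the block. *FURIN*, a convertase of the trans-Golgi network, differed by 0.75 on the log2 scale (adjusted p = 0.091 from edgeR) and was called with the block (0.76, adjusted p = 5.3e-05 from edgeR) and by DESeq2. *CPE*, carboxypeptidase E, was the most abundant at 309 TPM, followed by *CPD* at 26.2 TPM, and neither was called in either fit. The remaining granins, *VGF* at 7.09 TPM and *PCSK1N* at 8.33 TPM, were not called in either fit. Of the peptide hormones 9 of 24 were tested and 0 called in either fit, led by *ADM* at 20.1 TPM and *CALCB* at 17.5 TPM. Of the amine and vesicle transporters 2 of 10 were tested, *SLC17A6* at 2.69 TPM and *SLC18A2* at 0.373 TPM, with 0 called in either fit.

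**Figure D5:**
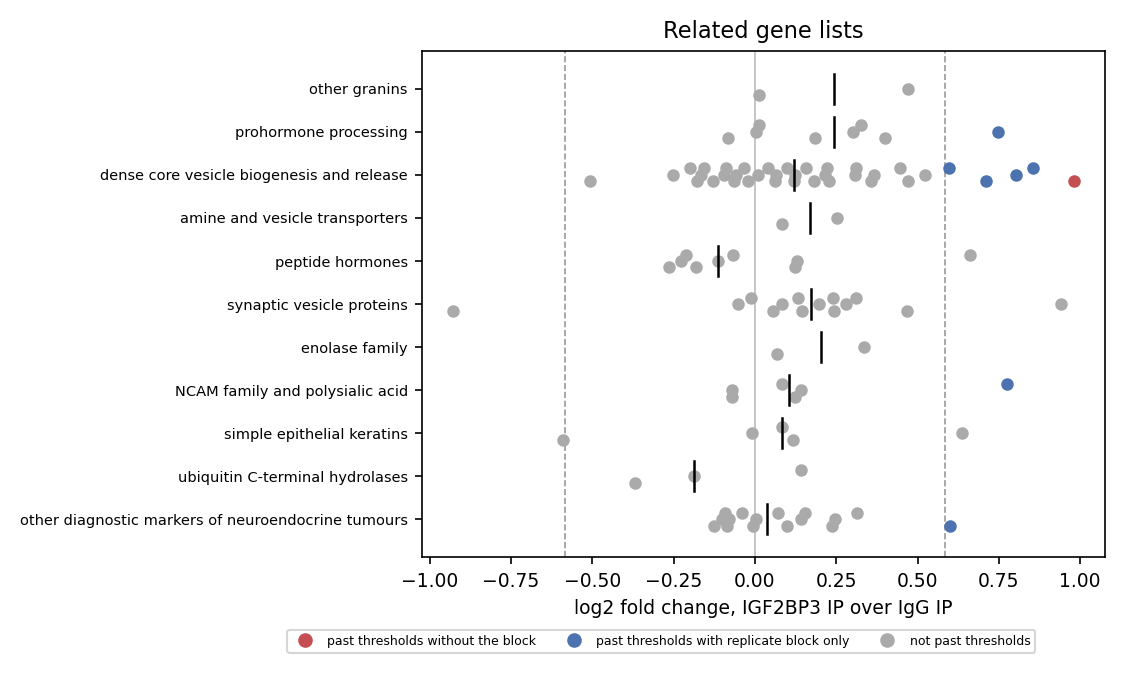
Fitted log2 fold changes (IGF2BP3 IP over IgG IP) of the 104 tested genes of 11 related lists, 1 point per gene, with black bars at the list medians and dashed lines at 1.5-fold; red marks the gene past both thresholds without the block, blue those past them with the block only, gray the rest, and vertical offsets within a list only separate points. *HID1* is the red point at 0.98, and most of the 104 points lie between the dashed lines.

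*ENO1*, the ubiquitous enolase, was more abundant than *ENO2* at 126 TPM. For *ENO1* the control gave 134, 152 and 157 normalized CPM and the IGF2BP3 antibody 178, 180 and 201, without overlap. The log2 fold change of *ENO1* was 0.34 (adjusted p = 0.137 from edgeR), and *ENO3*, the muscle form, had 0.07 (adjusted p = 0.928 from edgeR) at 4.72 TPM. In the *NCAM1* family and the enzymes of polysialic acid, the sugar chain that NCAM1 carries, 6 of 10 genes were tested and 0 called without the block. *NFASC*, neurofascin, differed by 0.78 on the log2 scale (adjusted p = 0.091 from edgeR) and was called with the block (0.78, adjusted p = 1.8e-07 from edgeR). The polysialyltransferase-family gene *ST8SIA3* at 16.0 TPM and *NRCAM* at 14.2 TPM were not called in either fit.

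Among the other keratins of simple epithelia, the filament proteins of which keratin 20 is 1, 5 of 6 genes were tested and 0 called in either fit. *KRT8* at 132 TPM differed by 0.12 on the log2 scale (adjusted p = 0.833 from edgeR) and *KRT18* at 139 TPM by -0.01 (adjusted p = 0.989 from edgeR). Replicate 1 was the highest in both groups for *KRT8*, at 243 and 271 normalized CPM against 175 to 202 in the others. Of the ubiquitin C-terminal hydrolases 3 of 3 were tested and 0 called in either fit. *UCHL5* was at 138 TPM and *UCHL3* at 132 TPM, but *UCHL3* held only 25 to 42 counts per library, so its count and its TPM are far apart. Of the synaptic vesicle proteins beside synaptophysin 14 of 16 were tested and 0 called in either fit, with *SYPL1* at 59.9 TPM and *SYN2* at 47.7 TPM the most abundant.

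Of the further diagnostic markers 16 of 23 were tested and 0 called without the block. The transcription factor RNAs *POU4F3* at 559 TPM and *ATOH1* at 475 TPM were the most abundant of them, close to the level of *KRT20*, and neither was called in either fit. *PAX5*, a B-cell factor that MCC also expresses, was called with the block only (log2 fold change 0.61, adjusted p = 3.8e-06 from edgeR, against 0.60 and 0.216 without it). These list genes other than *HID1* and the most abundant 2 of each list were named after their values were seen. The markers of other cell types that passed the filter, 7 genes from 3 lists, held 0 calls in either fit, and *DCN* was lower in every IGF2BP3 IP library than in every IgG IP library (log2 fold change -0.21, adjusted p = 0.392 from edgeR). Its part in the results above was not tested.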

How the data were processed

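RIP-seq of WaGa cells gave 3 IgG IP and 3 IGF2BP3 IP libraries, grouped and numbered by their labels, whose design text calls the replicates independent. Reads were aligned by the authors with STAR 2.7.9a to the GRCh38 genome, and RSEM was run on the GENCODE version 37 annotation. The authors deposited raw counts for each gene, not normalized, along with TPM and FPKM values. The program behind the counts and its use of strand are not given in the sources used here, so genes that overlap are uncertain. The FPKM values that the authors deposited served only to derive effective lengths.

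Counts were filtered with filterByExpr, scaled with TMM and tested with edgeR 4.0.16 (R 4.3.3), condition only. The authors' methods name DESeq2, which was run as an alternative (1.42.0), as were limma 3.58.1 on TPM values (log2, pseudocounts of 1 and 0.1), other scalings and filters, loess corrections (span 0.5) for GC content and length, a replicate block and leaving out libraries. Same-numbered libraries deviated together from their group means across genes (correlations 0.57, 0.28 and 0.23), so the numbers were taken as pairs. Replicates 2 and 3 correlated as much across numbers (0.28 and 0.27). The correlations thus set replicate 1 apart but do not show how replicates 2 and 3 pair, which limits all fits with the block. Levels between genes were compared as TPM without a test. Coordinates, exons and sequences came from canonical transcripts of GENCODE version 44 on GRCh38.

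The members and lists were chosen with earlier results of these data known. The rule for names was all members, every list gene past the thresholds and the 2 most abundant genes of each list. A further list gene stays in the counts but is not reported here. The fits were tested on simulated data with 200 changed genes. These were changed 2-fold in either direction, with a common dispersion and no shift between replicates. The simulation thus does not cover changes near 1.5-fold or libraries that stand apart. Depth ran from 9758759 to 14886414 counts, and intervals cover the spread between these libraries.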

Additional observations from a re-analysis of the deposited data

How the results depend on the processing

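The number of marker RNAs called higher was 0 with edgeR and condition only, and 1 (*NCAM1*) with DESeq2, without the expression filter, with the replicate block in edgeR or DESeq2 and with the GC correction plus block. Leaving out libraries gave 0 to 1, the 1 without IGF2BP3 IP replicate 1 and without replicate 1 of both groups, a setting added after the data were seen. Of the related list genes, 1 was called in the fit with condition only. The number was 7 with DESeq2 and 6 without the filter. It was 0 with limma on either TPM scale, 8 with the edgeR block, 7 with the DESeq2 block, 0 with the GC correction alone and 5 with it or the length correction plus block. Leaving out libraries gave 0 to 7. None of the members or list genes was called lower under any of these settings. With the edgeR block and no fold change minimum, *NCAM1*, *ENO2* and *SCG5* were past the adjusted p-value threshold. With the GC correction and block, *SYP* was at -0.30 on the log2 scale (adjusted p = 0.0066 from edgeR). With the length correction and block, *KRT20* had -0.14 (adjusted p = 0.023 from edgeR). The number of members above 1 TPM stayed at 9 without any 1 library and with CPM per kilobase, but *SYP* and *ENO2* changed places without IgG IP replicate 2 (-3.915 and -3.911 on the log2 scale relative to *CHGA*, against -3.85 and -3.93 with all libraries).

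For 189 log2 fold changes of members under the alternatives, 164 kept direction and side of the threshold, 7 passed it and 18 changed sign, all 18 from values not past the threshold. Of 231 of the other named genes these numbers were 173, 35 and 15, and 8 (all *HID1*) lost the threshold. On the TPM scales the median of all tested genes moved to 0.11 and 0.13, so signs there are read relative to it. On these scales *CHGA* was at 0.10 and 0.10 (relative to the median -0.01 and -0.03), *SCG5* at 0.0076 and 0.0076 (-0.10 and -0.13), *KRT20* at 0.041 and 0.041 (-0.07 and -0.09), *KRT18* at 0.13 and 0.13, and *ENO3* at -0.45 and -0.53. With library totals only, *CHGA* was at 0.012 and *KRT18* at 0.035. With the GC correction, without and with the block, *CHGB* was at -0.056 and -0.050, *UCHL1* at -0.0059 and -0.0038, *ENO3* at -0.081 and -0.075, and *KRT8* at -0.076 and -0.081. With the length correction *CHGB* was at -0.030, with the block at -0.024, and *SCG3* without it at -0.0031. Leaving out 1 library moved *CHGB* between -0.050 and 0.12, *UCHL1* between -0.0046 and 0.13, *ENO3* between -0.069 and 0.28, *KRT8* between -0.078 and 0.29 and *KRT18* between -0.16 and 0.083. The cause of these changes was not tested. Depth limits *SCG2*, which could not be compared. The interval of *CHGB*, on 78 to 158 counts per library, spans a 0.78-fold to a 1.31-fold ratio.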
